A study of Mus musculus with 7 samples.

Results

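The blood vessels of the cervical spinal cord were followed through 10 genes chosen by their symbols. Of these, 6 mark the endothelial cells of the blood-spinal cord barrier (Cldn5, Pecam1, Flt1, Slco1a4, Abcb1a and Mfsd2a) and 4 mark pericytes (Pdgfrb, Rgs5, Vtn and Kcnj8). All 10 were found among the 55487 genes counted and all 10 were among the 18449 genes with enough reads for a test. RNA-seq had been made from whole cervical spinal cords of Neat1-KO; hSOD1G93A mice (n = 4, replicates 1 to 4) and Neat1-WT; hSOD1G93A mice (n = 3, replicates 2 to 4), all 8 weeks old, with 1 library per mouse. Every mouse thus carried the hSOD1G93A transgene, a human SOD1 gene with a mutation that causes familial ALS, and the groups differed in Neat1, a long non-coding RNA that builds the nuclear bodies called paraspeckles. The mice came from crosses of parents heterozygous for Neat1, of which the fathers carried the transgene. Both sexes were used in the study, but the sex of the mice sequenced is not stated. No mice without the transgene were among the libraries analysed.

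Endothelial cells of the central nervous system are sealed to each other by tight junctions, carry transporters that admit nutrients and export drugs, and suppress transport in vesicles. Pericytes sit on the outer side of the capillary within the same basement membrane, are recruited through PDGF-B signaling, and help to maintain the barrier. Leakage of the barrier is known from mice that express mutant SOD1, and the comparison asks whether the lack of Neat1 goes with another level of these genes at 8 weeks. In whole tissue, fewer cells of a type and less RNA per cell cannot be told apart.

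No member was called different between the genotypes. The call asked for an adjusted p under 0.1 in edgeR's quasi-likelihood test together with an absolute log2 fold change over 0.58, a rule that called 6 of all 18449 genes (0.0325%). Levels are given as CPM, the counts scaled to a library's total. An unadjusted p under 0.05 was reached by 1 of the 10 members, Mfsd2a, against 856 of all genes (4.64%). The libraries of the genotypes overlapped in all 10 members, whereas they were fully apart in 1010 of all genes (5.47%). Of the 10 log2 fold changes (Neat1-KO over Neat1-WT), 9 lay between -0.08 and 0.14, close to the median over all genes of 0.01, and the remaining one was that of Mfsd2a, -0.35. The 95% intervals of those 9 reached at most from 0.735-fold to 1.44-fold.

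**Figure D1:**
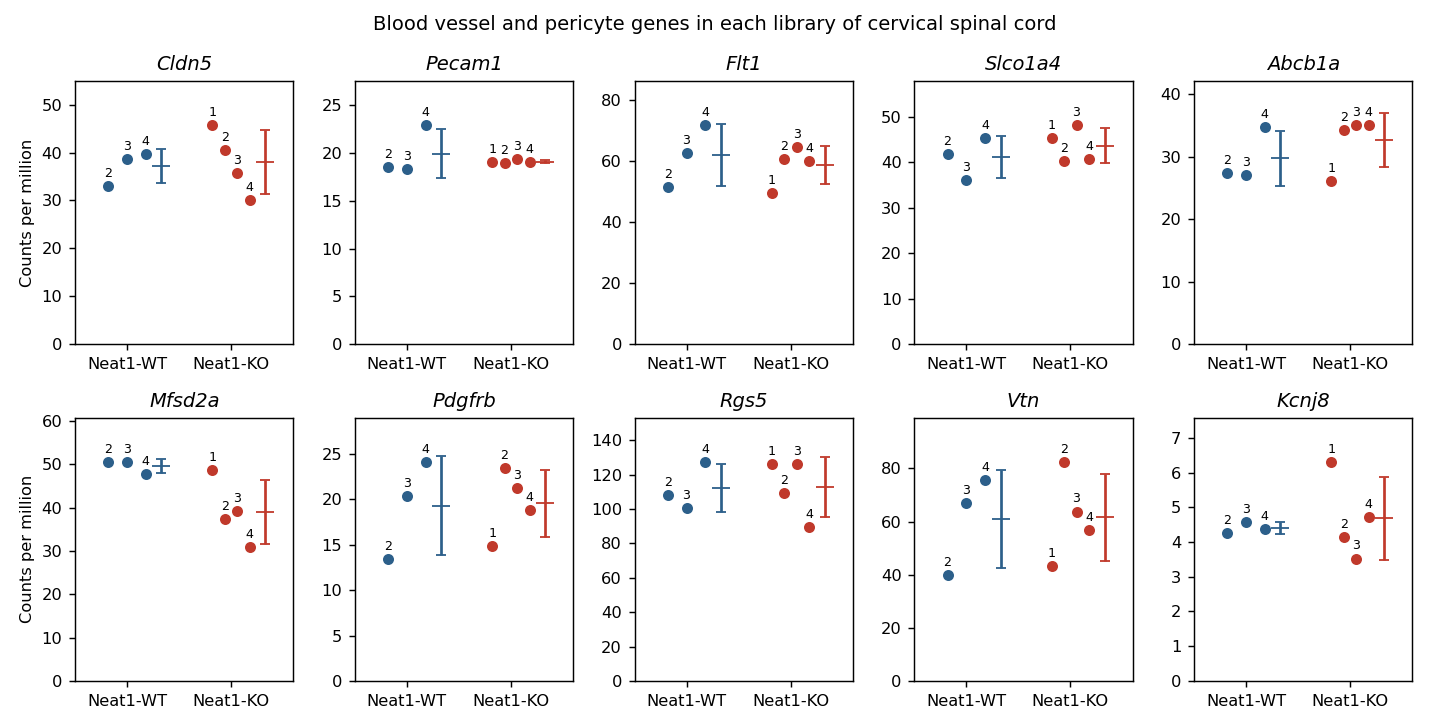
CPM of the 10 members in each library, Neat1-WT in blue and Neat1-KO in red, with the replicate number above each point and the mean ± SD beside the points. The groups overlap in every panel; Mfsd2a comes nearest to a separation, and Pdgfrb and Vtn are lowest in Neat1-WT replicate 2 and Neat1-KO replicate 1.

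The depth behind these values was even, with 19661878 to 26031517 counts per library and between 76 and 2725 counts per member and library. Neat1 itself was at 4.04 to 5.52 CPM in the Neat1-KO libraries and at 80.5 to 118 CPM in the Neat1-WT libraries (log2 fold change -4.25, SE 0.15, edgeR adjusted p = 1.52e-08), as the labels have it. The position genes of the cord fitted its cervical label, since Hoxa5 was at 47.2 to 63.7 CPM while Hoxd11, expressed further down the cord, had no count in any library. Xist, which female cells express, was at 0 to 0.161 CPM in every library, so that no library showed a female pattern of this gene. The sex of the mice was not tested further.

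Levels of different genes were compared per length, as CPM per kilobase of exon, averaged over all 7 libraries. Vtn stood highest at 30.2 ± 7.78 CPM per kb (SD, n = 7), before Cldn5 at 26.6 ± 3.66 and Rgs5 at 24.8 ± 3.24, and these 3 did not part beyond their spread. Vtn was above Cldn5 in 5 of 7 libraries and Cldn5 above Rgs5 in 4 of 7. Mfsd2a followed at 19.4 ± 3.46 CPM per kb (22.1 in Neat1-WT and 17.4 in Neat1-KO libraries). It was below Rgs5 in 6 of 7 libraries, with overlapping spread. Below Mfsd2a the level dropped in all 7 libraries to Slco1a4 at 6.63 ± 0.627 and Abcb1a at 5.73 ± 0.777. Flt1 was at 4.45 ± 0.564, Pdgfrb at 3.55 ± 0.747 and Pecam1 at 3.13 ± 0.252 CPM per kb, with Pdgfrb above Pecam1 in 5 of 7 libraries. Kcnj8 was lowest at 1.79 ± 0.339 CPM per kb, below Pecam1 in all 7. Exon length here is the union over all isoforms, 13504 bp for Flt1, so genes with long alternative exons are placed lower than by their main transcript.

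Mfsd2a encodes a lipid transporter of brain and spinal cord endothelium that takes up lysophosphatidylcholine carrying docosahexaenoic acid and keeps vesicle transport low. It was at 50.6, 50.7 and 47.8 CPM in Neat1-WT replicates 2 to 4, and at 48.8, 37.3, 39.3 and 30.9 CPM in Neat1-KO replicates 1 to 4. All Neat1-WT libraries were thus close together, and 3 of 4 Neat1-KO libraries lay below them, while Neat1-KO replicate 1 lay within their range. The 3 Neat1-WT mice averaged 49.7 ± 1.66 CPM (SD) and the 4 Neat1-KO mice 39.1 ± 7.40 CPM (SD). The log2 fold change was -0.35 (SE 0.12, 95% interval -0.62 to -0.08). The unadjusted p was 0.0149 in edgeR, but the adjusted p over all genes was 0.992, and the exact two-sided permutation test over the 35 assignments of the libraries gave p = 0.0857, where 0.0286 is the smallest it can give. DESeq2 and limma-voom also placed Mfsd2a, alone among the members, under an unadjusted p of 0.05. Without Neat1-KO replicate 1 the log2 fold change was -0.48 with an edgeR adjusted p of 0.107. This was the lowest adjusted p with a single library left out. Leaving out any other library gave 0.583 (Neat1-KO replicate 3) or higher. The alternatives put the log2 fold change of Mfsd2a at -0.60 to -0.25. The value of -0.60 came only from the fit with Xist as a covariate (edgeR adjusted p = 0.694), which rests on few reads. The next lowest, -0.48, came from the replicate block.

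The genes of barrier structure showed smaller differences. Cldn5, the main claudin of the endothelial tight junction, was at 33.1, 38.7 and 39.6 CPM in Neat1-WT and at 45.8, 40.4, 35.7 and 30.1 CPM in Neat1-KO libraries. The Neat1-KO libraries held both the highest and the lowest value, and the log2 fold change was 0.03 (SE 0.13, 95% interval -0.25 to 0.31, edgeR adjusted p = 0.996). Pecam1, an adhesion molecule at endothelial contacts, was the steadiest member, at 18.9 to 19.3 CPM in the Neat1-KO libraries and at 18.6, 18.3 and 22.9 CPM in the Neat1-WT libraries. Its log2 fold change was -0.06 (SE 0.10, 95% interval -0.28 to 0.16, edgeR adjusted p = 0.992).

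Slco1a4 encodes an organic anion transporter and Abcb1a the P-glycoprotein that pumps drugs back into the blood. Slco1a4 was at 41.8, 36.1 and 45.3 CPM in Neat1-WT and at 45.3, 40.3, 48.2 and 40.6 CPM in Neat1-KO libraries, with a log2 fold change of 0.08 (SE 0.10, 95% interval -0.13 to 0.30, edgeR adjusted p = 0.992). Abcb1a was at 27.4, 27.0 and 34.8 CPM in Neat1-WT and at 26.2, 34.26, 35.03 and 35.13 CPM in Neat1-KO libraries. Neat1-KO replicate 1 was the lowest of all libraries in Abcb1a, apart from the rest of its group, and the log2 fold change was 0.14 (SE 0.12, 95% interval -0.13 to 0.40, edgeR adjusted p = 0.992). It was 0.22 without this library (edgeR adjusted p = 0.729), and with 1 Neat1-WT library left out it was 0.08 (replicate 2), 0.07 (replicate 3) or 0.26 (replicate 4). Abcb1a overlaps the predicted transcript Gm42686 on the other strand over 553 bp, where reads cannot be told apart unless the counting used strand. Abcb1b, its sister gene, was low at 2.62 to 4.60 CPM and had a log2 fold change of 0.21 (edgeR adjusted p = 0.992).

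Flt1 encodes VEGFR1, a receptor of endothelial cells that binds VEGF-A and PlGF. It was at 51.4, 62.7 and 71.8 CPM in Neat1-WT and at 49.6, 60.5, 64.4 and 60.1 CPM in Neat1-KO libraries, with a log2 fold change of -0.08 (SE 0.12, 95% interval -0.33 to 0.18, edgeR adjusted p = 0.992). Each group had its lowest value in 1 library, Neat1-WT replicate 2 and Neat1-KO replicate 1. The ligands Vegfa and Pgf had log2 fold changes of 0.07 and -0.04, and the receptor Kdr one of 0.12, none past the test.

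Among the pericyte genes, Pdgfrb encodes the receptor for PDGF-B through which endothelial cells recruit pericytes. It was at 13.4, 20.4 and 24.2 CPM in Neat1-WT and at 14.8, 23.5, 21.2 and 18.8 CPM in Neat1-KO libraries. Its spread within a genotype was wide in both, and the log2 fold change was 0.02 (SE 0.19, 95% interval -0.38 to 0.43, edgeR adjusted p = 0.997). Its ligand Pdgfb was at 10.5 to 11.8 CPM in Neat1-WT and 10.5 to 16.8 CPM in Neat1-KO libraries (log2 fold change 0.24, SE 0.15, edgeR adjusted p = 0.992).

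Vtn encodes vitronectin, a matrix protein that pericytes release. It was at 40.1, 67.0 and 75.5 CPM in Neat1-WT and at 43.2, 82.6, 63.8 and 56.8 CPM in Neat1-KO libraries, a range of 2.06-fold, the widest of the members. The order of libraries was much like that of Pdgfrb, and the log2 fold change was 0.02 (SE 0.21, 95% interval -0.44 to 0.48, edgeR adjusted p = 0.997).

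Rgs5 encodes a regulator of G protein signaling abundant in brain pericytes. It was at 108, 101 and 128 CPM in Neat1-WT and at 126, 110, 126 and 89.7 CPM in Neat1-KO libraries, with a log2 fold change of 0.01 (SE 0.12, 95% interval -0.25 to 0.27, edgeR adjusted p = 0.997). Kcnj8, the Kir6.1 pore of the pericyte's ATP-sensitive potassium channel, was at 4.25, 4.58 and 4.38 CPM in Neat1-WT and at 6.32, 4.15, 3.53 and 4.73 CPM in Neat1-KO libraries. The Neat1-KO libraries again lay on both sides of the Neat1-WT libraries, and the log2 fold change was 0.08 (SE 0.20, 95% interval -0.36 to 0.52, edgeR adjusted p = 0.996). Abcc9, the regulatory subunit of the same channel, had a log2 fold change of 0.08 (SE 0.18).

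**Figure D2:**
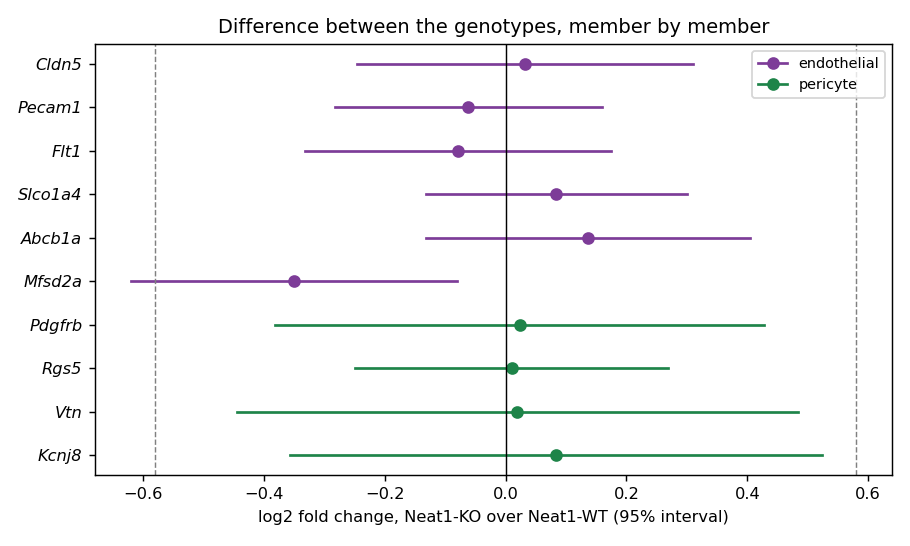
Log2 fold change of each member, Neat1-KO over Neat1-WT, with its 95% interval from the edgeR fit; dashed lines mark 0.58 in either direction. The interval of Mfsd2a, -0.62 to -0.08, is the only one that leaves out 0, and those of the pericyte genes Vtn, Kcnj8 and Pdgfrb are the widest.

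The promoters of 3 members are shown with their letters, Mfsd2a as the member with the lowest p, and Flt1 and Vtn as an endothelial and a pericyte gene that varied together between libraries. Each is the stretch of 250 bases before the transcript start in RefSeq (build GRCm38.p6), written 5′ to 3′ on the gene's strand, and capitals mark matches to the core of the ETS factor motif on either strand (NGGAAN, with A or C as the first letter and A or G as the last), the family to which Erg belongs.
Mfsd2a, minus strand, chr4:122961189-122961438: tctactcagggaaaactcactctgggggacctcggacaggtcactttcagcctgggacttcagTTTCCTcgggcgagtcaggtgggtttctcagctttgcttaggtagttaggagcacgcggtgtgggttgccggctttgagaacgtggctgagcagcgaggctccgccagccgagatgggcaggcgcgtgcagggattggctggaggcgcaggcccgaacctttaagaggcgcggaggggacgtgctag
Flt1, minus strand, chr5:147726012-147726261: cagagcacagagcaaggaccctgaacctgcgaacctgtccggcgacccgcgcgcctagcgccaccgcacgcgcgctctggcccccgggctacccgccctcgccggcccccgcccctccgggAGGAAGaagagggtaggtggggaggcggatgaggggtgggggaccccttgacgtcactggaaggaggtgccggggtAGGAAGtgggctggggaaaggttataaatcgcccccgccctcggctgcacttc
Vtn, plus strand, chr11:78498870-78499119: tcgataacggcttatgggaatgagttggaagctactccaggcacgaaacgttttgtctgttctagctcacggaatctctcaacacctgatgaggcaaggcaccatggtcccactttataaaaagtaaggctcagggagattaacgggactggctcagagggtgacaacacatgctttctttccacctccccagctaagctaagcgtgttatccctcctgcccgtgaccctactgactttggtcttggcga

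In windows of 250 bases before to 50 after the start, 5 of the 8 members searched (all but Pecam1 and Pdgfrb) held such a match, beside 64.7% of 32851 windows of all genes. Flt1, Slco1a4 and Abcb1a had 2 matches each, Mfsd2a and Rgs5 had 1, and Cldn5, Vtn and Kcnj8 had 0. The RefSeq start of Abcb1a lies 92986 bases before its start in GENCODE M21, so its window is not at the start of the gene as named here, while the other 7 starts lie within 29 bases of each other in the annotations. The endothelial members lie at chr16:18776847-18778262 (Cldn5), chr11:106654217-106750628 (Pecam1), chr5:147561604-147726011 (Flt1), chr6:141805440-141856199 (Slco1a4), chr5:8660077-8748575 (Abcb1a) and chr4:122946850-122961188 (Mfsd2a), in GRCm38. The pericyte members lie at chr18:61045150-61085061 (Pdgfrb), chr1:169655501-169695813 (Rgs5), chr11:78499091-78502324 (Vtn) and chr6:142564837-142571614 (Kcnj8). They are thus spread over 7 chromosomes, with Flt1 and Abcb1a, Slco1a4 and Kcnj8, and Pecam1 and Vtn on a shared one.

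Endothelial genes were then set against pericyte genes within each library, by the difference between the mean log2(CPM + 0.5) of the 6 and of the 4 members. This difference was 0.613, 0.328 and 0.344 in Neat1-WT replicates 2 to 4 and 0.438, 0.223, 0.403 and 0.357 in Neat1-KO replicates 1 to 4. The means of 0.428 ± 0.160 (SD, n = 3) and 0.355 ± 0.0944 (SD, n = 4) differed by -0.0727, less than either SD. Neat1-WT replicate 2 had the lowest mean of the pericyte genes of all libraries, 4.54. Pdgfrb and Vtn were at their lowest there, while Rgs5 (108 CPM) and Kcnj8 (4.25 CPM) lay within the range of the other libraries. Without this library the difference became 0.0195. It was -0.123 without Neat1-WT replicate 3, -0.115 without Neat1-WT replicate 4 and -0.0285 without Neat1-KO replicate 2, and between -0.100 and -0.0733 with any other Neat1-KO library left out. The endothelial mean alone was 5.24 ± 0.124 in Neat1-WT and 5.20 ± 0.0677 in Neat1-KO, and the pericyte mean 4.82 ± 0.255 and 4.85 ± 0.107, so the spread between libraries in the Neat1-WT group exceeded the difference of the genotypes in both classes.

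Members were also compared with each other from library to library. Over the 7 libraries, the median Pearson r of log2(CPM + 0.5) was 0.163 for the 15 pairs of endothelial members, 0.01 for the 6 pairs of pericyte members and 0.198 for the 24 mixed pairs. The closest pair was Pdgfrb and Vtn (r = 0.98), followed by the mixed pair Flt1 and Pdgfrb (r = 0.91), whereas the lowest was Abcb1a with Mfsd2a (r = -0.74). These values describe 7 libraries of both genotypes, within which all members share 1 library's depth and tissue, and carry no test. The genes most like the pericyte mean, among 12829 genes with at least 5 CPM, were Polr3d (r = 0.99), Lpcat1 (0.98), Glp2r (0.96), Igfbp6 (0.96) and Fntb (0.96). Those most like the endothelial mean were Tmem123 (r = 0.98), E330009J07Rik (0.98), Mtm1 (0.97), Usp6nl (0.97) and Lamp1 (0.97). As the highest of so many over 7 libraries, these r are high by selection and carry no test either.

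The levels of Pdgfrb and Vtn were next set beside the genes of other cell types in the same library, after their values had been seen. They went with fibroblast and meninges genes, and also with genes of other cells. Fibroblasts of the meninges and of the space around larger vessels express collagens and decorin, and Pdgfrb is known from them as well as from pericytes. The mean log2(CPM + 0.5) of 14 such genes was 1.98, 2.66 and 3.43 in Neat1-WT replicates 2 to 4 and 2.104, 3.34, 3.09 and 2.85 in Neat1-KO replicates 1 to 4. All 14 genes had reads, and their summed level ran from 99.8 to 314.6 CPM in Neat1-WT and from 109.6 to 293.1 CPM in Neat1-KO libraries. For example, Col1a1 was at 8.65 to 52.3 CPM and Dcn at 19.4 to 46.0 CPM in the Neat1-WT libraries, with 1 low library in each genotype, the same that were low in Pdgfrb and Vtn.

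Over the 7 libraries, Pdgfrb correlated with this mean at r = 0.97 (exact permutation p = 0.00119, adjusted over 10 members 0.0119; Spearman's rho 0.96, exact p = 0.00278). Vtn did so at r = 0.94 (exact permutation p = 0.00397, adjusted 0.0198; rho 0.86, exact p = 0.0238) and Flt1 at r = 0.89 (exact permutation p = 0.0113, adjusted 0.0377; rho 0.79, exact p = 0.0480). The adjustment covers the 10 members with this list alone, and the values had been seen before. For all members, including Flt1, these p-values thus describe the pattern and are no independent test. Without Neat1-WT replicate 2 and Neat1-KO replicate 1, the libraries farthest from the median, r over the remaining 5 was 0.88 for Pdgfrb, 0.71 for Vtn and 0.53 for Flt1, so that for Flt1 the relation rested largely on these libraries. Abcb1a had r = 0.85 with an adjusted exact permutation p of 0.0556. The other 6 members did not pass, with r of 0.57 for Pecam1, 0.12 for Rgs5, 0.11 for Slco1a4, 0.02 for Cldn5, -0.46 for Mfsd2a and -0.53 for Kcnj8. In the same 5 libraries as above, r was 0.71 for Rgs5, 0.61 for Slco1a4 and 0.48 for Cldn5, so that the contrast of Rgs5 with Vtn rests on Neat1-WT replicate 2 and Neat1-KO replicate 1.

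**Figure D3:**
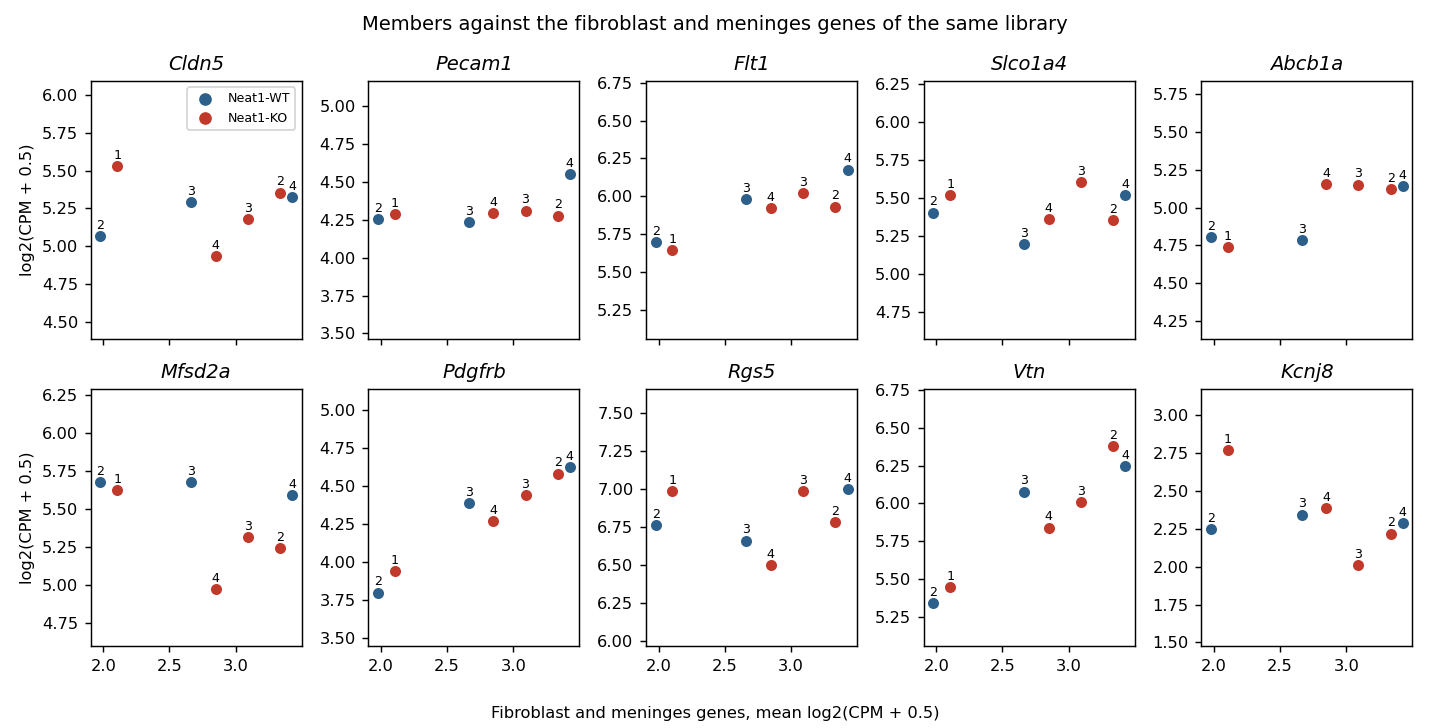
Log2(CPM + 0.5) of each member against the mean log2(CPM + 0.5) of 14 fibroblast and meninges genes in the same library, with the replicate number above each point; all vertical axes span the same range. Pdgfrb and Vtn climb from left to right in libraries of both genotypes, whereas Rgs5, Slco1a4 and Cldn5, with r of 0.12, 0.11 and 0.02, keep no such order over the 7 libraries.

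With the fibroblast and meninges mean as a covariate of the fit, which was also added after the data were seen, no member was called. Pdgfrb then had a log2 fold change of -0.05 and Vtn one of -0.08, and Mfsd2a one of -0.33 with an edgeR adjusted p of 0.669. The part of the fibroblast genes in the levels of Pdgfrb and Vtn was not tested beyond this.

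The relation was not particular to fibroblast genes. When Pdgfrb and Vtn were set against the mean of each of 18 gene lists, also after the data were seen, 8 lists passed for Pdgfrb and 4 for Vtn at an adjusted exact permutation p under 0.05 over 36 relations. Both members had been picked by their values in these same libraries, so that these p-values describe the pattern and are no independent test. Beside fibroblast genes (adjusted exact permutation p of 0.0238 for Pdgfrb and 0.0286 for Vtn in this family), both members went with microglia genes at r = 0.96 and 0.92 (adjusted exact permutation p of 0.0238 and 0.0299). They went with other pericyte identity genes at r = 0.94 and 0.92 (adjusted exact permutation p of 0.0238 and 0.0299), and with basement membrane genes at r = 0.91 and 0.87 (adjusted exact permutation p of 0.0286 and 0.0446). Pdgfrb alone also passed with endothelial identity genes (r = 0.88) and with Wnt and barrier induction genes (r = 0.85). It further passed with vascular ligands and receptors (r = 0.88) and perivascular macrophage genes (r = 0.90), each of these at an adjusted exact permutation p of 0.0299.

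The mean log2(CPM + 0.5) of 8 microglia genes was 4.46, 4.71 and 4.93 in Neat1-WT replicates 2 to 4 and 4.52, 4.91, 4.86 and 4.81 in Neat1-KO replicates 1 to 4. In 10 of the 18 lists, the lowest libraries were Neat1-KO replicate 1 and Neat1-WT replicate 2. Without the libraries farthest from the median of the list, r with microglia genes was 0.75 for Pdgfrb and 0.55 for Vtn. With the 9 neuronal genes r was -0.74 and -0.76, not past the adjusted threshold. Pdgfrb and Vtn thus went with lists of several cell types, and the part of each in their levels was not tested.

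The wider setting was read from 10 lists of vessel genes, 161 symbols that are not members. In whole tissue, the reads of these genes need not come from vessels alone. Of the 158 tested, none was called, 6 were higher and 2 lower in Neat1-KO libraries at an unadjusted p under 0.05 in edgeR (5.06%, beside 4.64% of all genes), and 8 had libraries that did not overlap (5.06%, beside 5.47%). Their median log2 fold change was 0.07, with 103 above and 55 below 0, beside a median of 0.01 and 51.8% above 0 over all genes. The genes of a list share the same libraries, so that their signs are not independent counts. The higher ones were Egfl7, Erg, Slc3a2, Cgn, Wnt7b and Ednrb, and the lower ones Ly6c1 and Ctnnd1.

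Of 25 endothelial identity genes, 21 had a log2 fold change above 0, with a median of 0.10 and none called. The mean log2(CPM + 0.5) of all 25 was 3.54, 3.70, 3.67 and 3.58 in Neat1-KO replicates 1 to 4. In Neat1-WT replicates 2 to 4 this mean was 3.35, 3.51 and 3.70, so that the groups overlapped. Egfl7, a secreted endothelial protein, was at 15.3 to 18.2 CPM in Neat1-KO and 13.2 to 15.3 CPM in Neat1-WT libraries (log2 fold change 0.31, edgeR adjusted p = 0.992). Erg, an ETS transcription factor of endothelium, was at 4.65 to 6.73 and 3.17 to 4.54 CPM, so that its groups did not overlap (log2 fold change 0.50, edgeR adjusted p = 0.992). Ly6c1 went the other way with a log2 fold change of -0.27 (edgeR adjusted p = 0.992). The 15 transporters had a median of 0.08 and none called, with the amino acid transporter chain Slc3a2 at 0.23 (edgeR adjusted p = 0.992).

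Of the 12 junction genes, 9 had a log2 fold change below 0, with a median of -0.04 and none called. Cgn, which encodes cingulin of the tight junction, had the smallest p of the vessel lists. It was at 7.96, 8.51, 8.63 and 8.39 CPM in Neat1-KO and at 5.61, 6.35 and 5.76 CPM in Neat1-WT libraries, without overlap (log2 fold change 0.50, SE 0.13, edgeR adjusted p = 0.705). Ctnnd1, the p120 catenin of adherens junctions, lay the other way at 5.19 to 6.77 and 7.20 to 9.24 CPM (log2 fold change -0.47, SE 0.15, edgeR adjusted p = 0.952). Neither gene is specific to vessels, and both fell short of the adjusted threshold. Among 16 genes of Wnt signaling and barrier induction, with a median of -0.03, Wnt7b was at 30.2 to 34.9 CPM in Neat1-KO and 26.7 to 27.7 CPM in Neat1-WT libraries (log2 fold change 0.26, edgeR adjusted p = 0.962).

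**Figure D4:**
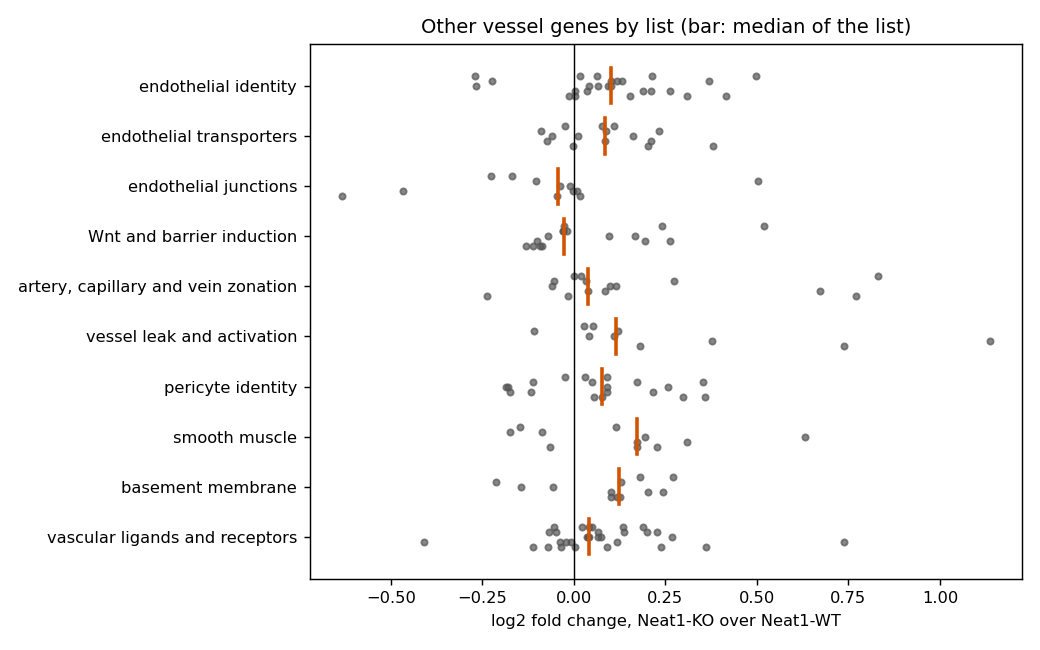
Log2 fold change, Neat1-KO over Neat1-WT, of every tested gene of the 10 vessel lists, 1 point per gene, with the median of each list as a bar. The medians lie between -0.04 for junction genes and 0.17 for smooth muscle genes, and the points farthest to the right are Esm1, at 0.140 to 1.45 CPM over all libraries, and the zonation gene Vwf, whose libraries span 6.49-fold.

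In the remaining lists no gene was called, and the medians were 0.04 for artery, capillary and vein genes, 0.11 for leak and activation, 0.08 for pericyte identity, 0.17 for smooth muscle, 0.12 for basement membrane, and 0.04 for ligands and receptors. Bmx, a kinase of arterial endothelium, ran from 0.822 to 2.1 CPM in Neat1-KO and from 0.663 to 0.815 CPM in Neat1-WT libraries and did not overlap (log2 fold change 0.77, SE 0.38, edgeR adjusted p = 0.992). Myh11, the smooth muscle myosin of arteries, had a log2 fold change of 0.63 (SE 0.30, edgeR adjusted p = 0.992), with its highest value, 15.8 CPM, in Neat1-KO replicate 4. Ednrb, an endothelin receptor that astrocytes also express, was at 136 to 163 CPM in Neat1-KO and 106 to 146 CPM in Neat1-WT libraries (log2 fold change 0.23, edgeR adjusted p = 0.992). Of the other genes with the 3 smallest p in their list, Slc22a8, Abcc4, Notum, Axin2, Gkn3, Ephb4, Angpt2, Esm1, Vcam1, Foxc1, Ano1, Tpm2, Col4a2, Lamb2, Agrn and Tgfbr2 had log2 fold changes between 0.10 and 1.14, and Marveld2, Mcam and Sncg between -0.63 and -0.15, each with an unadjusted p above 0.05. Blood cell genes were low, summing to between 8.7 and 15.1 CPM in Neat1-KO and between 10.1 and 16.0 CPM in Neat1-WT libraries.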

How the data were processed

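Per the labels and the study's methods, paired-end reads came from directional poly(A) libraries of 7 cervical spinal cords. The authors trimmed them (Trimmomatic 0.38), aligned them (HISAT2 2.1.0, mm10) and counted them per gene (featureCounts 1.6.3), and deposited raw counts. The annotation release and strand setting are not given in the sources used here. Genes were named by GENCODE M21. With R 4.3.3 and edgeR 4.0.16, filterByExpr kept 18449 genes, TMM factors scaled the libraries, and quasi-likelihood F-tests were adjusted by Benjamini-Hochberg over all genes tested. CPM (counts divided by the TMM-scaled library total) carry a pseudocount of 0.5 on the log2 scale, and exon length is the union of all exons. DESeq2 1.42.0, limma 3.58.1, other scalings, no filter, the replicate block, Xist as a covariate and each library left out were alternatives. The script was tested on simulated data. Members and lists were chosen with earlier results of these data known. Besides members and their direct partners, the 3 genes with the smallest p in each vessel list are named, and Vwf, Col1a1 and Dcn were picked after their values were seen. No member had a copy with at least 90% identity over 50% of its length. The labels do not say how mice share litters or batches.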

Additional observations from a re-analysis of the deposited data

Results flagged for a closer look

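The CPM of Abcb1a in Neat1-KO replicate 1, 26.2 against 34.3 to 35.1 in the other 3 Neat1-KO libraries, lay apart from its group. The gap to the nearest library was 0.903 of the group's range, above Dixon's 95% critical value for 4 libraries. In all, 13 groups of values were looked at in this way, of which chance alone places 0.65 above that value and these data 1. The lowest Neat1-WT libraries were at 27.0 and 27.4 CPM. Neat1-KO replicate 1 was also low among the libraries in fibroblast and meninges genes.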

How the results depend on the processing

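No member was called under any of the alternatives run, and Mfsd2a and Abcb1a kept the sign of their fold change in all of them; with no filter on low counts, Mfsd2a reached an edgeR adjusted p of 0.0668 at a log2 fold change of -0.35. Of 160 member values over 16 alternatives, 128 kept their sign and 32, in 8 members, changed it. The number of genes called, 6, was 124 with no filter, 27 in DESeq2, 19 without the libraries lowest in fibroblast genes (Neat1-KO replicate 1 and Neat1-WT replicate 2), and between 3 and 31 with 1 library left out (3 without Neat1-WT replicate 3, 11 without Neat1-WT replicate 4, 31 without Neat1-KO replicate 1). With each library left out in turn, log2 fold changes ran from -0.071 to 0.13 for Cldn5, -0.12 to 0.048 for Pecam1, -0.20 to 0.039 for Flt1, -0.0012 to 0.16 for Slco1a4, 0.071 to 0.26 for Abcb1a, -0.18 to 0.21 for Pdgfrb, -0.063 to 0.11 for Rgs5, -0.21 to 0.20 for Vtn and -0.090 to 0.20 for Kcnj8.

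Deviations from the group means correlated at -0.202, -0.122 and -0.0147 for the shared replicate numbers 2, 3 and 4. Whether these numbers pair the mice cannot be told from this, since mice of a shared litter or batch need not deviate together. With the replicate block 39 genes and no member were called, and the signs turned for Cldn5 (-0.074), Flt1 (0.0051), Rgs5 (-0.053) and Kcnj8 (-0.097). Replicate 1 exists only in Neat1-KO, so the block takes that library out of the comparison of the genotypes. The fit without Neat1-KO replicate 1 gave these members -0.071, -0.0086, -0.050 and -0.090, so the block is hardly a separate alternative. With Xist as a covariate they turned for Cldn5 (-0.25), Pdgfrb (-0.016), Rgs5 (-0.15), Vtn (-0.099) and Kcnj8 (-0.0021), but Xist was at 0 to 0.161 CPM in every library, so that this covariate rests on few reads. With the fibroblast and meninges mean as a covariate they turned for Pdgfrb (-0.051) and Vtn (-0.079), and without the libraries lowest in it for Cldn5 (-0.15), Pdgfrb (-0.075), Rgs5 (-0.073), Vtn (-0.074) and Kcnj8 (-0.11). The causes of the changes were not tested. The intervals limit what can be seen at this number of mice, and that of Vtn ran from 0.735-fold to 1.40-fold. A call asks for more, since the interval of Mfsd2a left out 0 at an edgeR adjusted p of 0.992.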
